A study of Mus musculus with 8 samples.

Results

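The mouse potassium channel genes whose symbols begin with Kcn were followed in hippocampal RNA-seq of 2 genotypes. All genes with such a symbol were taken except the 5 non-coding antisense or overlapping transcripts (Kcnab3os, Kcnd3os, Kcnmb4os1, Kcnmb4os2 and Kcnq1ot1), which left 94 genes of 55188 in the tables. They fall into 21 subfamilies by the letters after Kcn, and GENCODE M21 annotates all 94 as protein-coding. The samples were hippocampi of C57BL/6 mice collected before fear conditioning, labelled either wild type (WT) or knockout (KO) of Pyk2, the calcium-sensitive tyrosine kinase encoded by Ptk2b. Each genotype had 2 numbered units with 2 technical replicate libraries each, 8 libraries in all. A numbered unit is called an animal here (n = 2 per group). Whether WT1, WT2, KO1 and KO2 are single mice is not stated in the labels, and the p-values cover only the spread between these units. The labels describe all mice as transgenic and give no age, no sex and no account of how the KO allele was made.

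Potassium channels carry potassium across the membrane and set resting potential, spike shape and firing rate. The voltage-gated, calcium- or sodium-activated, inward rectifier and 2-pore-domain channels are built from the pore-forming subunits of this family, and the Kcnab, Kcnip, Kcne and Kcnmb genes encode accessory subunits that change their gating or trafficking. In the hippocampus most of these channels act in neurons, a few in glia, and the inward rectifier Kir7.1 (Kcnj13) and the accessory subunit Kcne2 are known from the choroid plexus, the epithelium that secretes cerebrospinal fluid and lies against the hippocampus.

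The 94 genes together held 0.239% to 0.258% of the FPKM of a library. FPKM divides a gene's fragment number by its transcript length and by the size of the library, so levels of different genes can be set side by side. The summed library FPKM was 489121 to 506216, and the widths of the deposited intervals, read as counting error alone, would imply 11.3 to 14.1 M fragments per library. Ptk2b, the gene named by the KO label, was not lower in the animals labelled KO: it stood at 232 FPKM in WT1, 202 in WT2, 278 in KO1 and 269 in KO2 (log2 difference 0.34, SE 0.07, limma adjusted p = 0.158). Values in tables of this kind do not show whether the transcript is intact, so the groups are named below as labelled and a direction means labelled KO against WT.

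Of the 94 genes, 74 reached 0.5 FPKM in at least 2 animals and were tested, and 20 stayed below it. In the mean of the 4 animals 67 genes reached 1 FPKM, 37 reached 10 FPKM and 3 reached 50 FPKM. The expression was concentrated: the highest gene held 14.9% of the family sum, the highest 5 held 34.2% and the highest 20 held 68.5%. The 20 genes below the minimum had means of 0.00109 to 0.386 FPKM, 10 of them below 0.05. They include Kcnj1, the ROMK channel of the kidney, Kcnk16 of the pancreas and Kcna7 of muscle. None of the 94 was listed at 0 in all 8 libraries.

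**Figure D1:**
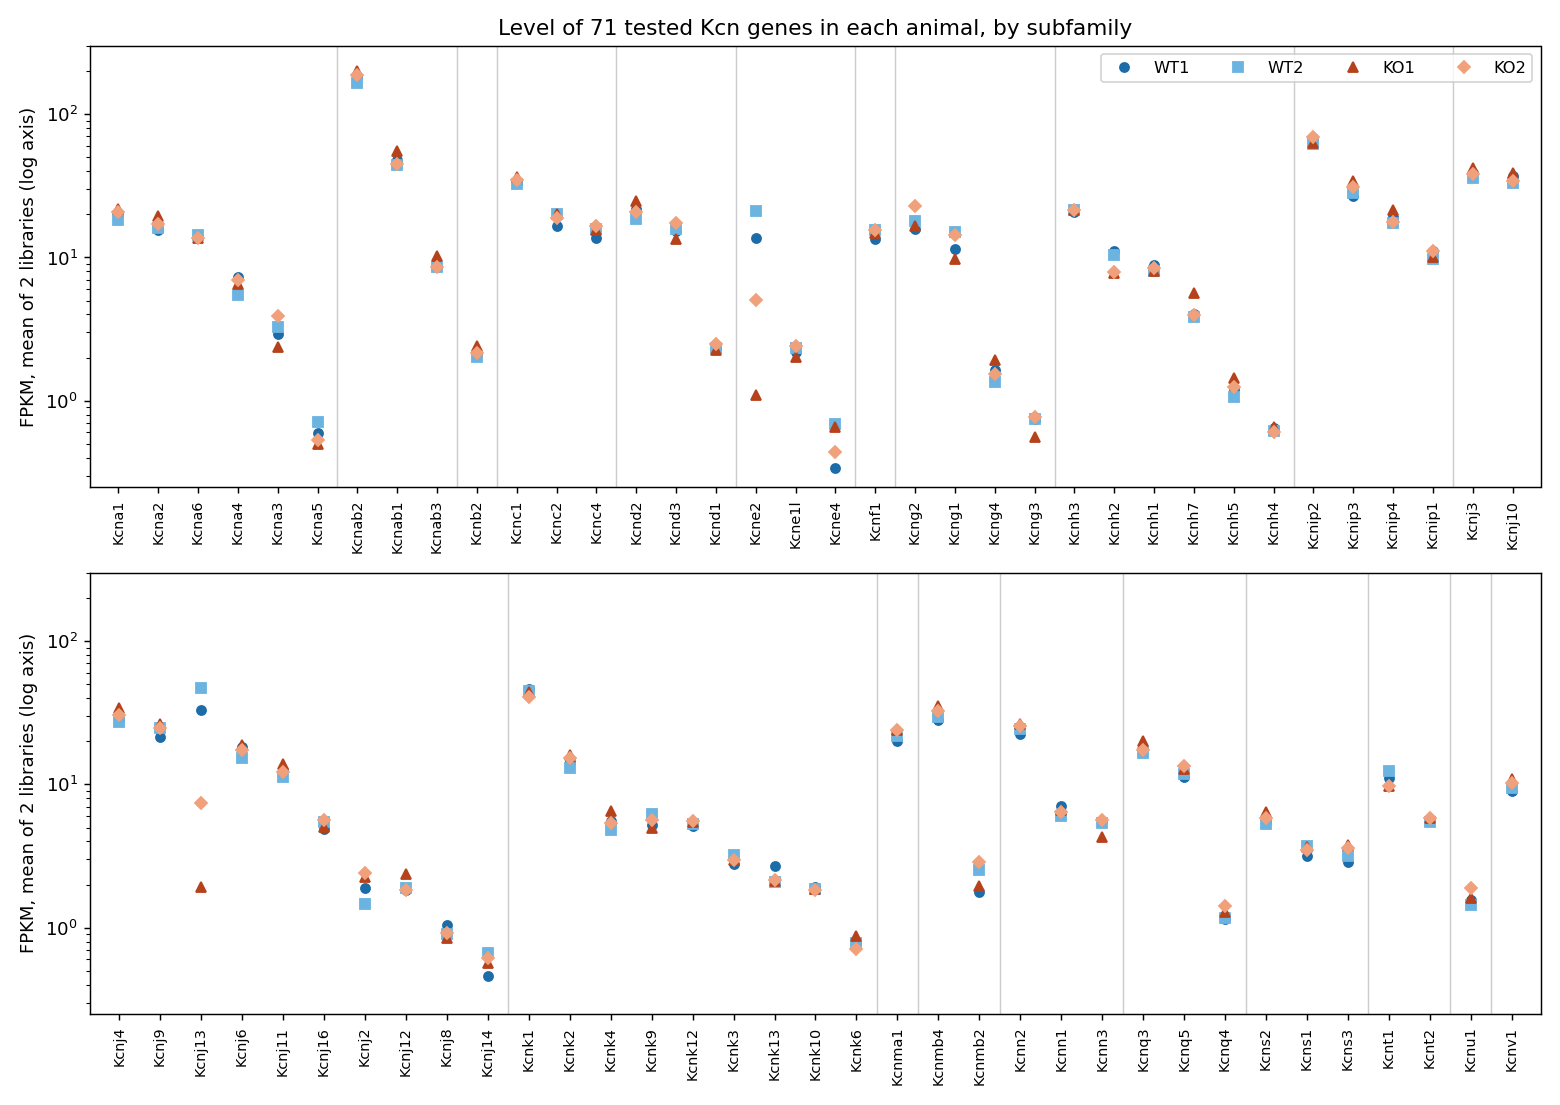
FPKM of 71 of the 74 tested members (log axis, each point the mean of 2 libraries), grouped by subfamily, in WT1, WT2, KO1 and KO2. Kcnab2 sits highest, and Kcnj13 and Kcne2 are the members whose WT and KO points lie far apart.

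No potassium channel gene passed the adjusted threshold between the labelled genotypes, and the differences were of very unequal size. The KO mean differed from the WT mean by -88.4% for Kcnj13, -82.3% for Kcne2, -27.2% for Kcnh2 and -16.4% for Kcnt1, while most other members had slightly higher means. The median log2 difference of the 74 tested genes was 0.09, with quartiles of -0.01 and 0.14, against -0.02 over all 16667 genes tested. Of the 74, 4 differed by more than 0.3 on the log2 scale (5.41%, against 7.99% of all genes tested): Kcnj13, Kcne2, Kcnh2 and Kcnj2.

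At a Benjamini-Hochberg adjusted p of 0.05 over all genes in limma, 0 of 74 members were higher and 0 were lower, beside 0.0% and 0.054% of all genes tested. At an unadjusted p of 0.05, 12 members were higher (16.2%, against 4.11% of all genes) and 4 were lower (5.41%, against 11.4%). Counts of higher and lower means rest on log2(FPKM + 1) for members and partner proteins, and on plain FPKM for cell type markers. The mean of log2(FPKM + 1) was higher in KO for 54 of 74 members, 73.0%, against 42.0% of all genes. It was lower for 20, against 58.0% of all genes. With other scalings the same split was 62 of 74 (83.8%, against 55.1% of all genes) with median-of-ratios factors and 63 of 74 (85.1%, against 58.8%) after quantile normalization. Both KO animals were above both WT animals for 22 members (29.7%, against 18.4%) and below them for 6 (8.11%, against 30.7%). With 2 animals against 2, an exact two-sided permutation test of a single gene cannot go below p = 0.333.

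**Figure D2:**
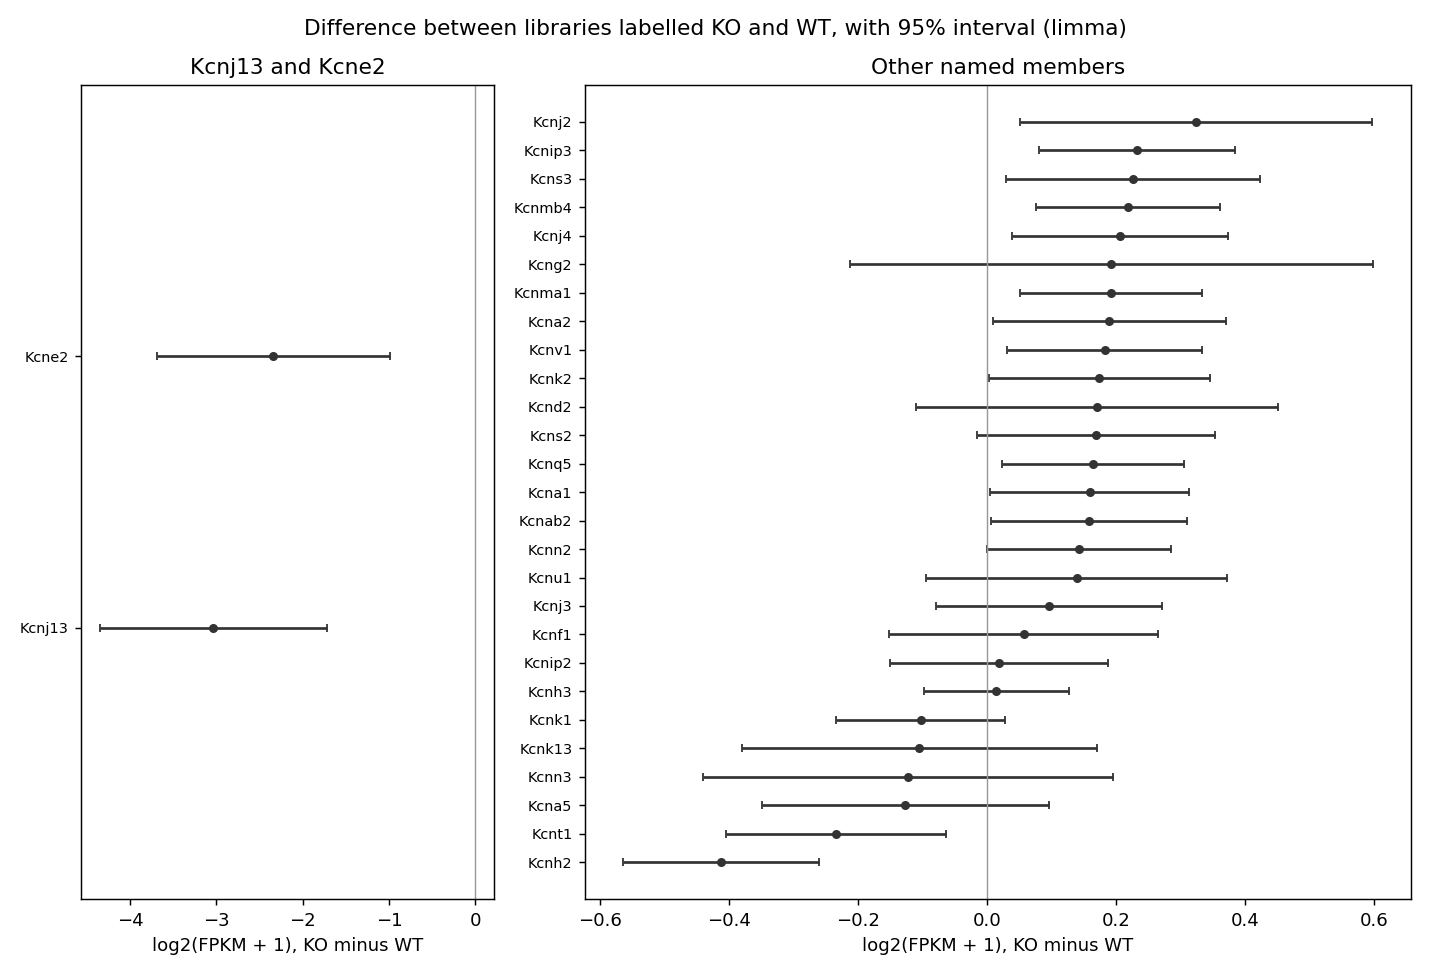
Difference KO minus WT on the log2(FPKM + 1) scale for 29 tested members, with 95% limma intervals as bars and Kcnj13 and Kcne2 in a panel of their own. Kcnj13 and Kcne2 lie at -3.03 and -2.34, Kcnh2 at -0.41, and the other members between -0.23 and 0.32.

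The inward rectifier Kcnj13 (Kir7.1; chromosome 1, 87386363 to 87394729, minus strand, mm10) had the largest difference of the family. It stood at 33.4 and 32.8 FPKM in the libraries of WT1, 46.6 and 48.3 in WT2, 1.95 and 1.91 in KO1 and 7.74 and 7.07 in KO2. All 4 KO libraries lay below all 4 WT libraries, and the animals of each genotype also differed clearly from each other. The group means were 40.3 ± 10.2 and 4.67 ± 3.87 FPKM (SD, n = 2), a log2 difference of -3.03 (SE 0.51, 95% interval -4.35 to -1.72, limma adjusted p = 0.115). With each animal left out in turn it was -3.29 without WT1 (adjusted p = 0.311), -2.78 without WT2 (0.490), -2.27 without KO1 (0.113) and -3.79 without KO2 (0.0256), taking the spread of the lone animal from the other genotype. Of Kcnj13's exonic bases 49.1% lie opposite exons of Gigyf2, and no strand setting is given. Gigyf2 itself stood at 20.6, 20.5, 17.7 and 19.6 FPKM in WT1, WT2, KO1 and KO2.

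Kcne2 (chromosome 16, 92292389 to 92298129), a small single-pass subunit that assembles with Kcnq and Kcnh channels, followed the same order of animals. It stood at 14.1 and 13.4 FPKM in WT1, 21.1 and 21.2 in WT2, 1.24 and 0.952 in KO1 and 5.19 and 4.96 in KO2. As for Kcnj13, the KO libraries lay wholly below the WT libraries and KO1 was the lowest animal. The means were 17.5 ± 5.25 and 3.08 ± 2.81 FPKM (SD, n = 2), a log2 difference of -2.34 (SE 0.52, 95% interval -3.69 to -0.99, limma adjusted p = 0.170). Under the same assumption it was -2.64 without WT1 (adjusted p = 0.385), -2.05 without WT2 (0.588), -1.57 without KO1 (0.234) and -3.11 without KO2 (0.0383).

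Markers of choroid plexus epithelium moved with both genes. All 20 of the 20 listed markers, such as Ttr, Folr1 and Kl, were lower in both KO animals than in both WT animals, with a median log2 difference of -2.20. Of all genes tested 30.7% were lower in this way. The list was chosen with earlier results of these data known, so the count is not independent of them. The summed level of the 20 markers was 4363 and 7661 FPKM in WT1 and WT2 and 311 and 1277 in KO1 and KO2, and none of them was at 0. In bulk tissue, fewer cells of a type and less RNA per cell cannot be told apart. Per 1000 FPKM of this list, Kcnj13 stood at 7.58 and 6.20 in the WT animals and at 6.21 and 5.80 in the KO animals. Kcne2 stood at 3.15 and 2.76 per 1000 FPKM in WT and at 3.52 and 3.97 in KO. Ttr alone made up 79.4% of the list's sum, and these ratios depend on it. Per 1000 FPKM of the other 19 markers, a comparison chosen after seeing the data, Kcnj13 stood at 33.2 and 35.5 in WT1 and WT2 but at 14.7 and 21.5 in KO1 and KO2, lower in both KO animals. Kcne2 then stood at 13.8, 15.8, 8.37 and 14.8 in the same order, with overlapping groups. Enpp2 was the most abundant of these 19 markers, at 686, 925, 92.3 and 250 FPKM in WT1, WT2, KO1 and KO2. The 19 summed to 996, 1337, 131 and 344 FPKM, so the ratios without Ttr depend mainly on Enpp2. The ratio of Kcnj13 to Kcne2 was 2.41 and 2.24 in WT and 1.76 and 1.46 in KO. The part of choroid plexus content in the difference of these genes was not tested beyond these ratios.

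**Figure D3:**
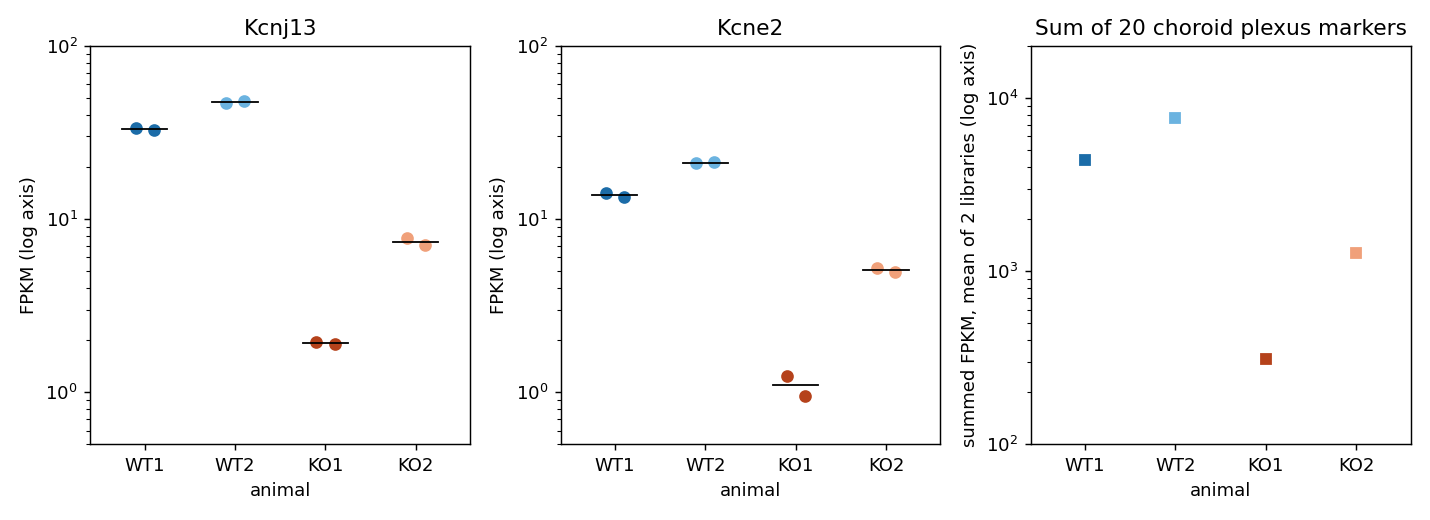
Levels of Kcnj13 and Kcne2 in the 8 libraries (points, with a line at each animal's mean) and the summed level of the 20 choroid plexus markers in the 4 animals (squares), all in FPKM on log axes. KO1 is lowest and WT2 highest in all 3 panels.

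The 250 bases before the transcription start are shown for both choroid plexus genes and for 2 members with other patterns, Kcnip2, one of the highest and nearly equal between genotypes, and Kcnj2, with the largest positive log2 difference. The windows come from RefSeq (GRCm38.p6) and were chosen after the values were seen. Each reads 5′ to 3′ on the gene's strand, with every CG pair in capitals.
Kcnj13, chr1:87394730-87394979, minus strand: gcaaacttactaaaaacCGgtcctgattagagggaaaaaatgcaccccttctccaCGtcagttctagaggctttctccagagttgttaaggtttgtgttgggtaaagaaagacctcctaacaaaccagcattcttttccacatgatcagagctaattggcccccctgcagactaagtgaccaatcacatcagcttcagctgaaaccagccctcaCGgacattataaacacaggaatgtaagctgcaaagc
Kcne2, chr16:92292139-92292388, plus strand: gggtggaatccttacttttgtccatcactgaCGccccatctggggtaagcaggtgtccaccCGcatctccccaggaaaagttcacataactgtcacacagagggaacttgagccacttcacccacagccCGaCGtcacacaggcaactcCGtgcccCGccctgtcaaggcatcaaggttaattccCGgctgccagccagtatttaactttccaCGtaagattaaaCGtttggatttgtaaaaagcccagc
Kcnip2, chr19:45816064-45816313, minus strand: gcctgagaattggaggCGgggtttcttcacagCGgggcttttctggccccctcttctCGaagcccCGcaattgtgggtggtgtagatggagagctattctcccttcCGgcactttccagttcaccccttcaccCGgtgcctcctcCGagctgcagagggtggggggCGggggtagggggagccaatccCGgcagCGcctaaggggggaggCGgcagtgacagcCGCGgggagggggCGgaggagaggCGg
Kcnj2, chr11:111065914-111066163, plus strand: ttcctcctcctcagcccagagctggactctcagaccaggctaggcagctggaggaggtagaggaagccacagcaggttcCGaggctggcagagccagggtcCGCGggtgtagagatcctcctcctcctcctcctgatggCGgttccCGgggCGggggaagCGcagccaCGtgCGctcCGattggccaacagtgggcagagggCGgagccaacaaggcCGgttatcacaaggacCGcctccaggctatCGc
The Kcnj13 window held 3 CG pairs and 45.2% G or C and the Kcne2 window 9 pairs and 52.4%. The Kcnip2 window held 15 pairs and 66.8% and the Kcnj2 window 14 pairs and 65.6%. Kcne2 has 2 windows, and the one not shown (chr16:92295366-92295615) held 1 CG pair and 48% G or C. Over the 94 windows found for 69 members the median was 7 CG pairs, against 6 over all 32851 windows of the table. The letters TATAAA, searched on both strands, were present in 3 of the 94 windows (3.19%), against 12.4% of all windows. In Kcnj13 the match begins 29 bases before the start. The other matches were in windows of Kcnj9, a neuronal inward rectifier subunit, and Kcnj16, an inward rectifier subunit of glia and kidney.

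The other inward rectifiers had small differences, mostly with a higher mean in KO. Where a gene is given with 2 values here, WT comes before KO. The Kcnj sum was 202 ± 3.83 FPKM in WT and 182 ± 7.83 in KO (SD, n = 2), but 162 ± 6.36 and 177 ± 11.7 without Kcnj13. Of the 12 Kcnj genes tested, 10 had a higher mean in KO and 2 a lower one, and 11 were higher after quantile normalization, where Kcnj8 changed side. Kcnj4, a strong rectifier (Kir2.3) of forebrain neurons, was at 27.7 ± 0.856 and 32.1 ± 2.53 FPKM (log2 difference 0.21, SE 0.07, adjusted p = 0.257). Kcnj2 (Kir2.1), which holds the resting potential, stood at 2.02, 1.77, 1.38 and 1.54 FPKM in the WT libraries and at 2.22, 2.30, 2.22 and 2.64 in the KO libraries. These groups did not overlap, and Kcnj2 had the largest positive difference of the family, 0.32 (SE 0.11, adjusted p = 0.266). Kcnj3, the GIRK1 subunit opened by G proteins, was the highest Kcnj gene by its mean over the 4 animals, at 37.5 ± 2.10 and 40.1 ± 2.91 FPKM, and its groups overlapped. Its GIRK partner Kcnj6 had means of 16.8 FPKM in WT and 18.1 in KO, and Kcnj9 of 23.0 and 25.4. The glial Kir4.1 gene Kcnj10 stood at 34.9 ± 2.68 and 36.6 ± 3.07 FPKM, with overlapping animals, and the pore subunit of neuronal ATP-sensitive channels, Kcnj11, at 11.9 and 13.1.

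Among the voltage-gated channels with a lower mean, Kcnh2 (the ERG channel, which repolarizes heart muscle and restrains firing in neurons; chromosome 5, 24319589 to 24351604) had the smallest p of the family. It stood at 11.5, 10.9, 11.3 and 9.57 FPKM in the WT libraries and at 7.99, 7.52, 7.68 and 8.25 in the KO libraries. The libraries did not overlap, and the animals within each genotype were close. The means were 10.8 ± 0.532 and 7.86 ± 0.148 FPKM (SD, n = 2), a log2 difference of -0.41 (SE 0.06, 95% interval -0.56 to -0.26, limma adjusted p = 0.0996). The other 7 Kcnh genes summed to 36.0 ± 0.0584 and 37.1 ± 0.862 FPKM. Kcnh3, an ELK channel of forebrain neurons and the highest of the subfamily, was at 21.2 ± 0.510 and 21.5 ± 0.213, a log2 difference of 0.01 (95% interval -0.10 to 0.13).

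The Kv1 channels of axons and terminals and their beta subunits made up the largest share of the family. Kcnab2, the beta subunit that binds Kv1 channels and brings them to the axon, was the most abundant member. It stood at 181, 181, 166 and 166 FPKM in the WT libraries and at 201, 199, 186 and 189 in the KO libraries, without overlap. The log2 difference was 0.16 (SE 0.06, adjusted p = 0.307). The 3 Kcnab genes held 19.6% of the family sum, at 229 ± 13.3 FPKM in WT and 253 ± 17.0 in KO (SD, n = 2). Kcna1 and Kcna2, the low-threshold pore subunits of axons, had WT means of 19.0 ± 1.20 and 15.9 ± 0.421 FPKM and KO means of 21.4 ± 0.706 and 18.3 ± 1.59. Their log2 differences were 0.16 (adjusted p = 0.311) and 0.19 (adjusted p = 0.305). Not all Kv1 genes were on the same side: Kcna6 was at 14.1 and 13.8 FPKM, and Kcna5, a channel better known from heart and vessels, was at 0.651 ± 0.0762 and 0.512 ± 0.0244 (log2 difference -0.13, adjusted p = 0.531). Of the 6 Kcna genes tested, 3 had a higher mean and 3 a lower one on the log2 scale (Kcna3, at 3.08 and 3.13 FPKM, is higher by its plain mean), and 5 of 6 were higher with median-of-ratios factors or quantile normalization, where Kcna3 and Kcna6 changed side.

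The Kv2, Kv3 and Kv4 channels and the KChIP proteins had higher means in KO except Kcnd3, which was higher under both other scalings, while Kcnip2 was lower after quantile normalization. All 4 Kv3 genes, which allow fast spiking, had higher means. For Kv4, the A-type channel of dendrites, Kcnd2 was at 20.2 ± 2.17 and 22.8 ± 2.82 FPKM, while Kcnd3 was at 15.6 ± 0.485 and 15.4 ± 2.72. The KChIP genes encode calcium-binding subunits of Kv4 channels. Kcnip3, also known as the transcriptional repressor DREAM, stood at 26.6, 27.1, 28.1 and 28.2 FPKM in the WT libraries and at 34.3, 33.7, 31.2 and 30.9 in the KO libraries. The libraries did not overlap, and its log2 difference was 0.23 (SE 0.06, 95% interval 0.08 to 0.38, adjusted p = 0.197). Kcnip2, the most abundant KChIP gene, stood at 65.4 ± 4.29 and 66.2 ± 3.90 FPKM, a log2 difference of 0.02 (95% interval -0.15 to 0.19).

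Kcnq subunits carry the M-current of neurons, a slow brake on repetitive firing. Kcnq5 stood at 11.2, 11.4, 11.96 and 11.9 FPKM in the WT libraries and at 12.9, 12.7, 13.4 and 13.4 in the KO libraries, without overlap (log2 difference 0.16, SE 0.05, adjusted p = 0.272). All 4 tested Kcnq genes had higher means, while Kcnq1, the partner of Kcne1 in heart, was below the minimum.

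The electrically silent Kcnf, Kcng, Kcns and Kcnv subunits form no channel alone and modify Kv2 channels. Kcns3 stood at 3.01 ± 0.219 and 3.68 ± 0.124 FPKM (log2 difference 0.23, SE 0.08, adjusted p = 0.278) and Kcnv1 at 9.19 ± 0.269 and 10.6 ± 0.478 (0.18, SE 0.06, adjusted p = 0.261). Both had KO libraries wholly above the WT libraries, as had Kcns2 at 5.36 ± 0.150 and 6.15 ± 0.444 FPKM. Kcnf1 (14.6 ± 1.52 and 15.2 ± 0.612) and Kcng2 (16.9 ± 1.54 and 19.7 ± 4.48) overlapped between genotypes.

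Among the calcium- and sodium-activated channels, the tested BK channel genes had higher means and Kcnt1 a lower one. The BK subunit Kcnmb1 of smooth muscle, below the minimum, was at 0.473 ± 0.121 and 0.298 ± 0.0767 FPKM. Kcnma1, the BK channel opened by calcium and depolarization, stood at 19.9, 20.1, 21.9 and 21.7 FPKM in the WT libraries and at 24.1, 23.8, 24.0 and 24.1 in the KO libraries. Its neuronal beta4 subunit Kcnmb4 stood at 29.0, 27.7, 28.8 and 30.7 in WT and at 34.4, 36.1, 32.1 and 33.3 in KO. Neither gene's libraries overlapped, and the log2 differences were 0.19 (SE 0.05, adjusted p = 0.231) for Kcnma1 and 0.22 (SE 0.06, adjusted p = 0.197) for Kcnmb4. Of Kcnmb4's exonic bases 31.5% lie opposite Kcnmb4os1 and Kcnmb4os2, which had WT means of 0.352 and 2.70 FPKM and KO means of 0.260 and 2.84. Kcnn2, the SK channel behind the medium afterhyperpolarization, was at 23.6 ± 1.35 and 26.1 ± 0.699 FPKM (log2 difference 0.14, adjusted p = 0.322). Kcnn3, another SK channel, was at 5.45 ± 0.150 and 4.96 ± 0.987, with KO1 at 4.27 and KO2 at 5.66 on either side of the WT animals. The sodium-activated channel Kcnt1 (Slack) stood at 11.1, 11.02, 11.7 and 12.9 FPKM in the WT libraries and at 9.17, 10.4, 9.47 and 10.1 in the KO libraries. All its KO libraries were below its WT libraries (log2 difference -0.23, SE 0.07, adjusted p = 0.230), and its relative Kcnt2 was at 5.63 and 5.85. Kcnu1, the sperm channel Slo3, was at 1.495 ± 0.0889 and 1.75 ± 0.201 FPKM.

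The 2-pore-domain Kcnk genes carry background conductance, and 4 of the 9 tested had a higher mean and 5 a lower one, while 6 were higher under either other scaling. Kcnk1 (TWIK-1), a channel of neurons and astrocytes, was the highest at 45.8 ± 0.968 and 42.6 ± 2.26 FPKM (log2 difference -0.10, SE 0.05, adjusted p = 0.403), with all KO libraries below the WT libraries. Kcnk2 (TREK-1), opened by stretch and lipids, was at 13.7 ± 1.02 and 15.6 ± 0.539 (0.17, SE 0.07, adjusted p = 0.315). Kcnk13 (THIK-1), the background channel of microglia, was at 2.40 ± 0.421 and 2.14 ± 0.0320, and its animals overlapped. The acid-sensitive Kcnk3 and Kcnk9 had WT means of 3.004 and 5.74 FPKM and KO means of 2.97 and 5.30.

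All 4 KO libraries were above all 4 WT libraries for 15 members (20.3%, against 7.11% of all genes tested) and below them for 5 (6.76%, against 13.0%), namely Kcnj13, Kcne2, Kcnh2, Kcnk1 and Kcnt1. The spread sets the scale for these differences. Among the 37 members of at least 10 FPKM, the largest technical difference within an animal, as a percent of its mean, had a median of 3.71% and reached 26.3%. The 26.3% is that of Kcne2 in KO1, at 1.24 and 0.952 FPKM. Kcne2 has a mean of 10.3 FPKM over the 4 animals but of 3.08 in KO. The coefficient of variation (SD over mean) between the 2 animals of a group is another measure, not on the same scale as that difference. It had a median of 6.18% in WT and 5.45% in KO over the same 37 members. Over the 74 tested members the medians were 6.16% and 5.91%.

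Without Kcnj13 and Kcne2 the family sum was 1155 ± 21.2 FPKM in WT and 1236 ± 30.2 in KO (SD, n = 2), and with them 1213 ± 5.72 and 1244 ± 23.5. The pair contributed 46.8 and 68.6 FPKM in WT1 and WT2 and 3.03 and 12.5 in KO1 and KO2. Marker sums of neurons and glia were also compared. The 13 excitatory markers summed to 723 FPKM in WT1, 690 in WT2, 807 in KO1 and 769 in KO2. By their plain mean 10 of 13 were higher, while 42.0% of all genes tested were higher on the log2 scale. The 11 interneuron markers summed to 949, 926, 1030 and 973 FPKM, with 6 of 11 higher, but to 580, 573, 583 and 580 without Cck, their most abundant gene. The GABA synthesis and transport genes were among the 5 genes of that list with a lower mean in KO. Gad1 was at 99.0 and 96.7 FPKM and Gad2 at 29.9 and 26.8, both with overlapping animals. Slc32a1 was at 37.9 and 31.5, without overlap. Oligodendrocyte markers summed to 3027, 2838, 3347 and 2934 in the order WT1, WT2, KO1 and KO2, with 8 of 11 higher. Markers of neighbouring tissue summed to 113, 114, 83.5 and 87.1, with 6 of 14 higher. Without striatal Ppp1r1b, their most abundant gene, they summed to 63.8, 62.1, 55.5 and 58.8. Astrocyte markers, beside which glial Kcnj10 can be read, summed to 1211, 1164, 1310 and 1211 FPKM, with 6 of 12 higher. Microglial markers summed to 188, 177, 210 and 184, with 9 of 10 higher. Blood markers summed to 287, 317, 149 and 158, with 2 of 7 higher. Endothelial and pericyte markers summed to 72.8, 80.1, 67.8 and 72.0, with 3 of 12 higher. The part of tissue makeup in the small differences was not tested.

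**Figure D4:**
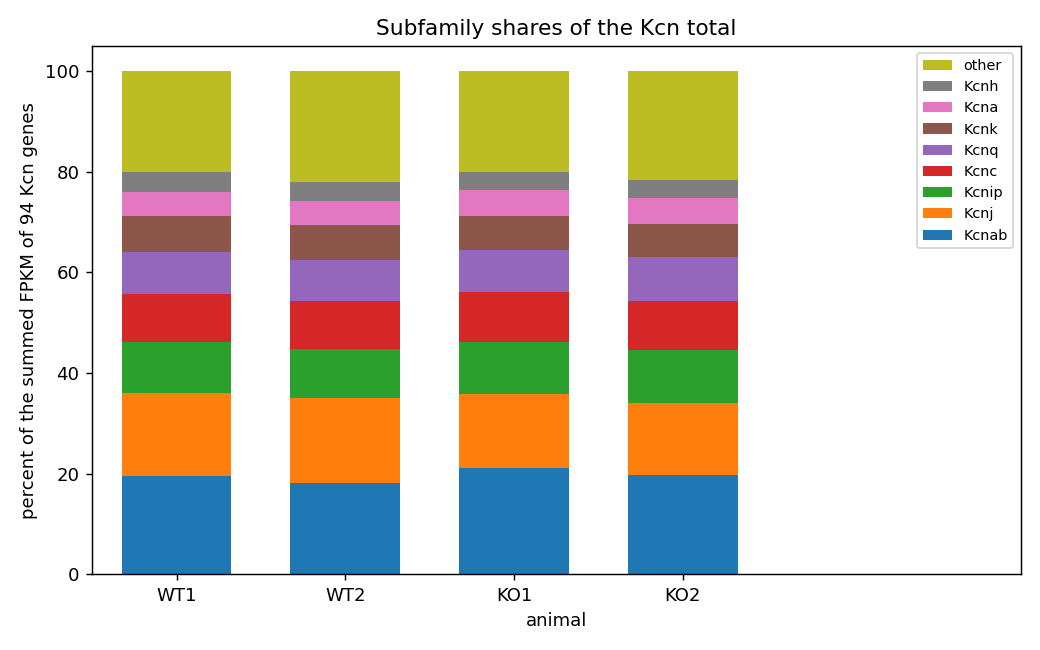
Percent of the summed FPKM of the 94 genes held by the 8 largest subfamilies and by the others together, as stacked bars for WT1, WT2, KO1 and KO2. Kcnab holds the largest share, 19.6% over the 4 animals, and Kcnj the next, 15.6%.

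Proteins outside the family that anchor or regulate these channels had small differences too. Of 30 such genes 28 were tested, and 0 passed the adjusted threshold in either direction. At an unadjusted p of 0.05, 6 were higher (21.4%, against 4.11% of all genes) and 0 lower (against 11.4%). The mean was higher for 24 (85.7%, against 42.0%), and the median log2 difference was 0.08, against -0.02 over all genes. Lgi1, a secreted protein that binds Adam22 and Adam23 near Kv1 channels, was at 50.2 ± 2.25 and 56.9 ± 1.55 FPKM (log2 difference 0.18, adjusted p = 0.218). Akap5, the kinase anchor that acts on M-channels, was at 16.8 ± 0.0774 and 18.9 ± 0.490 (0.16, adjusted p = 0.229). Vapa, a membrane contact protein that clusters Kv2 channels, was at 48.4 ± 0.405 and 51.9 ± 0.360 (0.10, adjusted p = 0.291), and Lgi2, a relative of Lgi1, at 7.89 ± 0.543 and 10.3 ± 1.86 (0.34, adjusted p = 0.2997).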

How the data were processed

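The authors deposited FPKM values per gene and library with confidence limits and a status, per the file headers. Bowtie (version 1), HISAT and the mm10 build are listed in the submitters' processing notes. Which program computed FPKM, with what scaling and strand setting, is not given in the sources used here, so reads of overlapping and antisense genes cannot be told apart. Counts were not recovered, and depth is only implied by interval widths.

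Repeated identifiers (53 of 55241 rows) were summed, and 12 values of another status than OK, none in the family, were treated as missing. The 2 technical replicates were averaged per animal. The test was limma 3.58.1 in R 4.3.3 with a trended variance on log2(FPKM + 1), for the 16667 genes that reached 0.5 FPKM in 2 animals. P-values were adjusted over all of them (Benjamini-Hochberg, threshold 0.05). The pseudocount of 1 understates differences of low genes. The procedure was tested on simulated data drawn from its own fitted variance trend with independent normal noise. These data meet the model by construction, so the test does not cover departures from it.

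The family, the lists and the rule for named genes were chosen with earlier results of these data known. The rule took Kcnj13, Kcne2, the highest member of each subfamily, the 8 smallest p in each direction, up to 4 partner proteins and Ptk2b. Kcna2, Kcnk2, Gigyf2 and the antisense genes were named after their values were seen, and other members are given as levels. Some members that the rule took are not reported here. Of the members, 92 of 94 have the coordinates of GENCODE M21. 28 share exonic bases with another gene, 4 of them over 20% (Kcna6, Kcnj3, Kcnj13 and Kcnmb4). Alternatives were other pseudocounts, minimums and scalings, single technical replicates, the animal number as a block, and each animal left out.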

Additional observations from a re-analysis of the deposited data

How the results depend on the processing

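With 2 animals per group the power for small differences is low, and FPKM without counts gives no depth per gene. Across 15 alternatives, 466 of 479 values of the 32 tested members taken by the rule kept their direction and their side of the threshold. In the main fit 0 members passed, and with no filter on low values 0 of all genes passed. Keeping the side of the threshold was therefore nearly fixed in advance and says little about stability. By direction alone, 9 of the 479 values changed, and 26 of 32 members kept their direction in every alternative. The number of members past the adjusted threshold was 2 with the animal number as a replicate block and 0 to 2 with an animal left out, in both cases Kcnj13 and Kcne2. In the block fit Kcnj13 stood at -3.03 (adjusted p = 0.0335) and Kcne2 at -2.34 (adjusted p = 0.0478), and 184 of all genes passed against 9 without it. The labels give numbers but no shared batch or litter, so the numbers were not treated as pairs. Deviations of same-numbered animals correlated at 0.108 across 16667 genes, a single value that cannot decide whether a batch was shared. Kcnj13 and Kcne2 were lower in animal 1 than in animal 2 of both genotypes. Over all settings the number of genes passing ranged from 0 to 184, with 0 without WT1, 0 without WT2, 1 without KO1 and 128 without KO2. The number of members at an unadjusted p of 0.05 was 16 and ranged from 8 (without KO1) to 19 (without KO2) with an animal left out, and was 10 without WT1. The median log2 difference, 0.09, was 0.041 with no filter on low values and ranged from 0.052 to 0.085 with an animal left out. Small differences changed sign: Kcnh3 stood at -0.0091 with technical replicate 1 only, and Kcnip2 at -0.018 after quantile normalization. With an animal left out the log2 difference ranged from -0.043 to 0.16 for Kcnf1, from -0.031 to 0.42 for Kcng2, from -0.0092 to 0.038 for Kcnh3, from -0.048 to 0.084 for Kcnip2, from -0.23 to 0.022 for Kcnk13 and from -0.29 to 0.047 for Kcnn3. The causes were not tested. The fits without the first library of KO1, and with the minimum set on the mean of all 4 animals, were chosen after seeing the data.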
